A study of Mus musculus with 4 samples.

Results

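The genes described here are 9 members of the Wnt and beta-catenin pathway: the ligands Wnt1 and Wnt10b, the secreted protein Dkk3, the zinc finger protein Cxxc5, the co-receptor Lrp6, the destruction complex genes Axin1, Apc and Gsk3b, and Ctnnb1, which encodes beta-catenin. They were taken by symbol from 11027 genes listed for 4 RNA-seq libraries of mouse CD4+ T cells, and all 9 were found. All 9 also reached 1 CPM (reads per gene scaled to library size) in at least 1 library, the level used to test genes, as did 10960 genes in all. Wnt1, Wnt10b, Dkk3 and Cxxc5 were chosen by their large folds between these same libraries, with the virus or the culture, so their values are given as a description with no test, and the other 5 members are given in the same way.

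Spleen and lymph nodes of wild type C57BL/6 mice aged 7 to 8 weeks gave the naive CD4+ T cells. They were activated and infected under neutral conditions, sorted for GFP and then cultured. The 4 groups were Th0 with the Tox2 retrovirus (Tox2-RV-GFP+), Th0 with the control retrovirus that carries GFP only (Empty-RV-GFP+), Tfh-like with the Tox2 virus, and Tfh-like with the GFP virus. IL-2, IL-4 and IFN-gamma were blocked by antibodies in both cultures, and IL-6 was added in the Tfh-like one. Tox2 is a nuclear protein that binds DNA through an HMG box, and the study asked how it acts in the differentiation of T follicular helper (Tfh) cells, which help B cells. The Tox2 groups are models of forced expression from a virus, in cells selected for infection, and how many animals gave the cells is not given in the sources used here. Each group had 1 library, so each difference below compares libraries, with no replicate check. Intervals cover counting error only. In bulk RNA, a larger number of expressing cells and more RNA per cell cannot be told apart.

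Wnt proteins are secreted, lipid-modified signals that bind Frizzled receptors together with the co-receptors LRP5 and LRP6. Without a signal, a destruction complex built on Axin and APC lets the kinases CK1 and GSK3 phosphorylate beta-catenin, which is then degraded. With a signal, Dishevelled recruits Axin to the receptor, beta-catenin accumulates and enters the nucleus, and it acts there with DNA-binding proteins of the TCF/LEF family. In T cells the family members TCF-1 (Tcf7) and LEF-1 (Lef1) are best known for their roles in thymocyte development, memory and the Tfh program.

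Total counts lay between 13015283 and 13673774 per library, where 1 count is 0.0731 to 0.0768 CPM. Tox2 had 35297 counts in Th0 with Tox2 against 144 in Th0 with GFP, and 32246 counts in Tfh-like with Tox2 against 851 in Tfh-like with GFP, as the labels say. Of 7 CD4+ T-cell markers 6 were measured, with a summed level of 3780 to 4340 CPM in every library. Few markers of other cells were measured: 1 of 2 for CD8+ T cells, 1 of 5 for B cells and 2 of 5 for myeloid cells. For dendritic, erythroid and natural killer cells they were 1 of 4, 1 of 3 and 0 of 3. Those measured were low: Cd8b1 had 9.14 to 15.4 CPM, the B-cell gene Cd79a 0.766 to 1.73 CPM. The myeloid genes Itgam and Cd14 together had 1.30 to 2.90 CPM, the dendritic cell gene Xcr1 at most 1.57 CPM and the erythroid gene Hba-a1 at most 0.744 CPM. Of the stromal list, Pecam1, which T cells also express, had 89.2 to 182 CPM, and Col1a1 and Pdgfrb had at most 13.5 and 6.50 CPM.

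Wnt1 and Wnt10b are neighbours on chromosome 15 of the mouse genome (GRCm38) and point away from each other. Wnt10b lies at 98770712 to 98778150 on the minus strand and Wnt1 at 98789857 to 98793837 on the plus strand, 11.7 kb apart with no protein-coding gene between them. Their promoters are shown because both ligands differed in the same direction with the virus and with the culture. RefSeq (GRCm38.p6) gives for each gene the 250 bases before and 50 bases after the start, printed 5′ to 3′ along the gene with CpG dinucleotides in capitals. The Wnt1 window is chr15:98789607-98789906 on the plus strand and the Wnt10b window is chr15:98778101-98778400 on the minus strand.
Wnt1 promoter: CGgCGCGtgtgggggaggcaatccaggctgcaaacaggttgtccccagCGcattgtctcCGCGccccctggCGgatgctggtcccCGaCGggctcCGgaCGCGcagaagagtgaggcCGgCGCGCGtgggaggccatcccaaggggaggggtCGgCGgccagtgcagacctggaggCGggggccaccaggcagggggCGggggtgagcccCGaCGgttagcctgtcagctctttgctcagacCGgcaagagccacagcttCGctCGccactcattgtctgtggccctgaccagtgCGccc
Wnt10b promoter: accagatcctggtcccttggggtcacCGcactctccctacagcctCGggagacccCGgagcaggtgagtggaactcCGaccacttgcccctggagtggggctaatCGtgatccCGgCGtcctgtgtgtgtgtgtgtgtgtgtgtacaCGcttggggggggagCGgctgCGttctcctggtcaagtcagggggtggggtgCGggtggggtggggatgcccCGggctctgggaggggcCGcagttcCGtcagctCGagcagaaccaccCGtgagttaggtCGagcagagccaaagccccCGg
The Wnt1 window holds 26 CpGs, more than 83.1% of the 32851 promoter windows in the table, and the Wnt10b window holds 18, more than 70.3% of them, against a median of 7 over all windows. Neither window holds CTTTGAT, the core of the TCF/LEF site, on either strand, a motif found in 3.73% of all windows. Neither holds TTCNNNGAA, the STAT site, which is in 8.30% of all windows and reads the same on both strands. Promoter sequences were matched for 4 of the 9 members, and the Ctnnb1 and Gsk3b windows also hold neither motif.

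Both Wnt ligands were higher with Tox2 in either culture and lower in the Tfh-like culture with either virus. Wnt10b, a ligand known in bone and fat for canonical signalling, had 1596 counts in Th0 with Tox2 against 211 in Th0 with GFP, and 150 counts in Tfh-like with Tox2 against 21 in Tfh-like with GFP. The Tox2 libraries were thus the higher ones within each culture, but Tfh-like with Tox2 lay below Th0 with GFP. The ratio of scaled counts for Tox2 over GFP was 7.32 in Th0 (6.34 to 8.49 by 95% counting interval) and 6.97 in Tfh-like (4.40 to 11.6). On the log2 scale these folds differed by -0.17 between Tfh-like and Th0 (counting interval -0.85 to 0.52), which at this depth is no detectable difference. Tfh-like over Th0 gave a ratio of 0.0976 with Tox2 (0.0820 to 0.115) and 0.102 with GFP (0.0621 to 0.161). The order of the libraries, high to low, was Th0 with Tox2 before GFP and then Tfh-like with Tox2 before GFP, and each step in it exceeded counting error. The smallest step was from Th0 with GFP to Tfh-like with Tox2, at 1.40-fold (1.13 to 1.74).

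Wnt1, the founding ligand of the family, had 378 counts in Th0 with Tox2 against 18 in Th0 with GFP, and 11 counts in Tfh-like with Tox2 against 2 in Tfh-like with GFP. It was thus abundant in 1 library and near the detection limit in Tfh-like with GFP. Tox2 over GFP gave a ratio of 20.3 in Th0 (counting interval 12.7 to 34.7). In Tfh-like the ratio was 5.37, with an interval of 1.17 to 49.8 that its 2 and 11 counts leave wide. On the log2 scale this fold was 1.68 with a prior count of 2 and 0.80 with a prior count of 10, where it was no longer 2-fold. Tfh-like over Th0 gave 0.0302 with Tox2 (0.0149 to 0.0547) and 0.114 with GFP (0.0129 to 0.478). Only 2 of 10960 genes had a lower fold than Wnt1 in the comparison of Tfh-like with Th0 under Tox2. The libraries stood in the same order as for Wnt10b, but Th0 with GFP and Tfh-like with Tox2 did not differ beyond counting error (1.63-fold, 0.729 to 3.82). The log2 fold for Tox2 was smaller in Tfh-like than in Th0 by -2.52 (counting interval -4.6 to -0.43). The interval of the Tox2 ratio in Tfh-like nevertheless holds the ratio in Th0, and the Tfh-like libraries hold 11 and 2 counts. The difference and the centre of its interval use folds with a prior count of 2. At a prior count of 0.5 the difference was -2.13, and the ratios of 20.3 and 5.37, which use no prior count, lie closer still. Whether the difference exceeds counting error is thus uncertain, as is its size.

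Per length, in the deposited FPKM, Wnt10b was the more abundant ligand in every library, at 27.2 in Th0 with Tox2 and 3.65 with GFP, and at 2.66 FPKM in Tfh-like with Tox2 and 0.379 with GFP. Wnt1 had 9.22 FPKM in Th0 with Tox2 and 0.445 with GFP, and 0.279 FPKM in Tfh-like with Tox2 and 0.0516 with GFP. The Wnt1 level was thus 33.9% of that of Wnt10b in Th0 with Tox2, 12.2% in Th0 with GFP, and 10.5% and 13.6% in Tfh-like with Tox2 and with GFP. Outside Th0 with Tox2 these percentages rest on 18, 11 and 2 counts of Wnt1, so their counting error is wide. In Th0 with Tox2 the FPKM of Wnt10b exceeded that of 84.7% of listed genes, and in Tfh-like with GFP that of 5.41%.

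**Figure D1:**
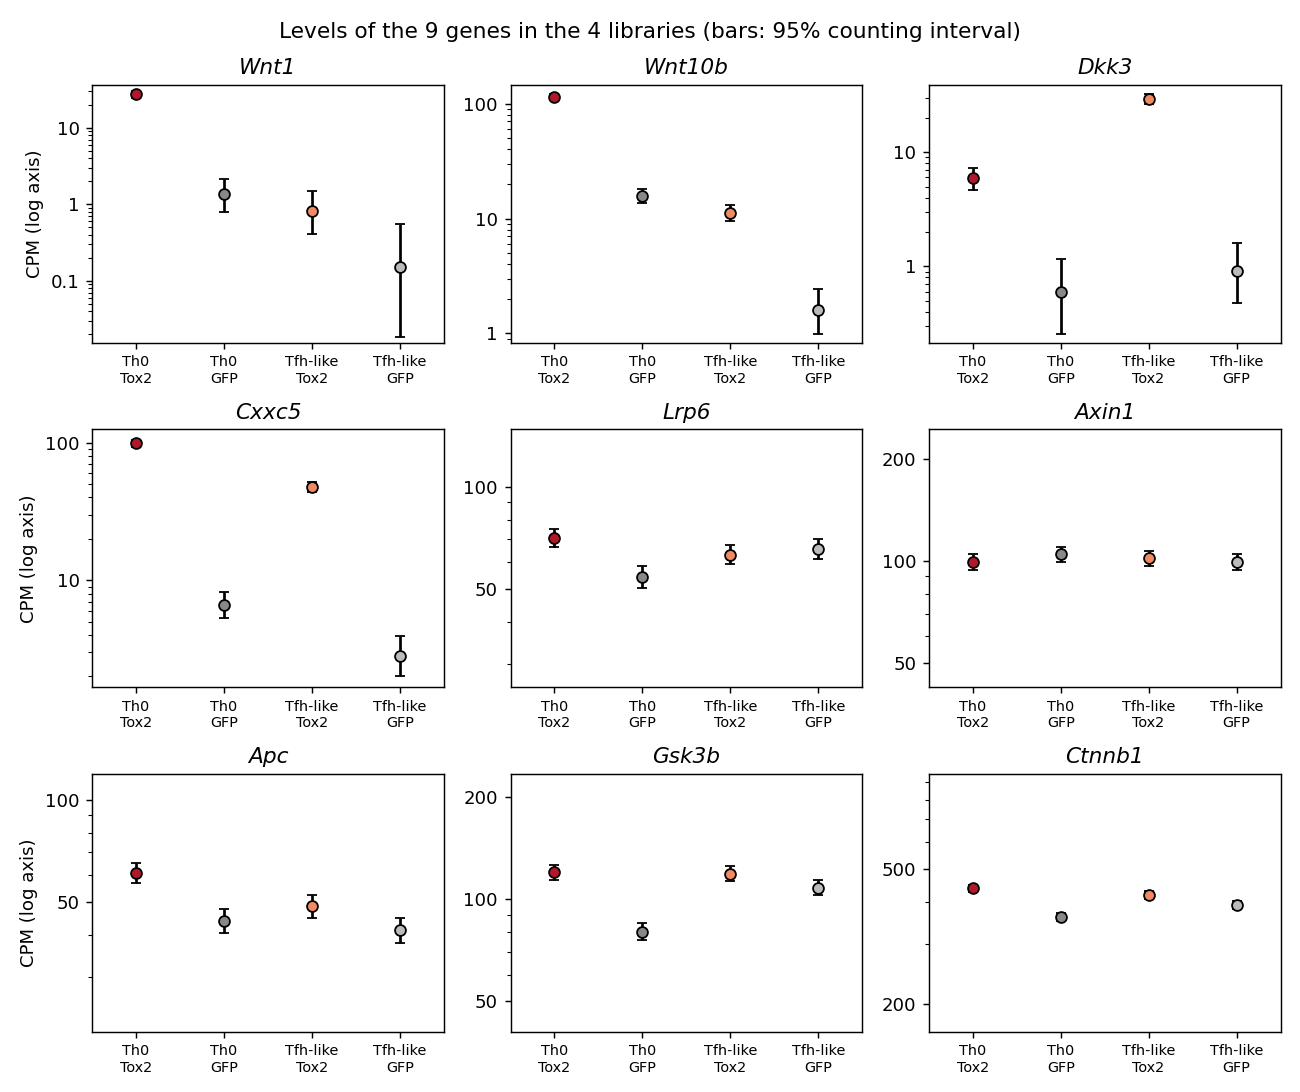
CPM (log axis, TMM-scaled) of each of the 9 genes in the 4 libraries, Tox2 left of GFP within each culture; points are single libraries and bars 95% counting intervals. Wnt1, Wnt10b, Dkk3 and Cxxc5 span 34.9-fold or more, while Lrp6, Axin1, Apc, Gsk3b and Ctnnb1 stay within 1.49-fold.

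The genes around the pair were looked at for the same pattern. Of the 3 protein-coding genes on either side of the pair, 5 were measured. Ddn, the gene next to Wnt1 (98803777 to 98809490, minus strand), which encodes dendrin, a protein known from neurons and podocytes, had 126 counts in Th0 with Tox2 against 17 in Th0 with GFP, and 17 counts in Tfh-like with Tox2 against 16 in Tfh-like with GFP. It was thus high in Th0 with Tox2 and level in the other 3 libraries. Its log2 fold for Tox2 over GFP was 2.71 in Th0 (2.11 to 3.67) and 0.05 in Tfh-like (-1.02 to 1.13). The other 4 measured neighbours were not 2-fold apart in any of the 4 pairs of libraries: Arf3, Fkbp11, Prkag1 and Kmt2d had log2 folds for Tox2 over GFP of 0.41, -0.80, -0.28 and 0.53 in Th0, and 0.15, -0.45, -0.01 and 0.24 in Tfh-like. Arf3, the gene next to Wnt10b, had 5817 to 8914 counts in all libraries.

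**Figure D2:**
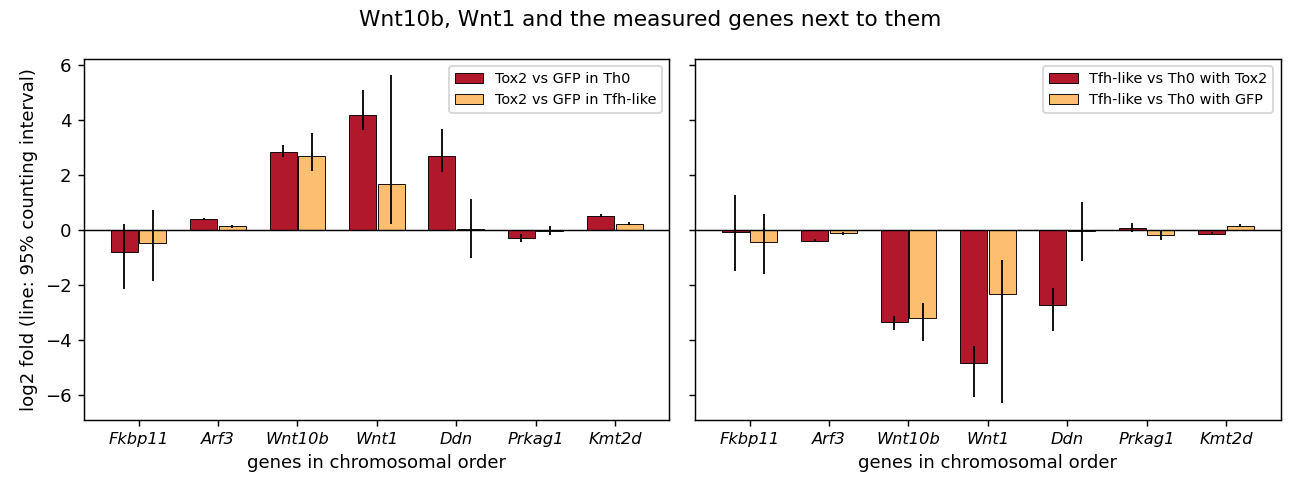
Log2 folds of Wnt10b, Wnt1 and 5 measured neighbouring genes, in chromosomal order; the left panel shows Tox2 over GFP in Th0 and in Tfh-like, the right panel Tfh-like over Th0 with Tox2 and with GFP, and lines are 95% counting intervals. Ddn stands with the Wnt pair in Th0 (2.71) but not in Tfh-like (0.05).

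Dkk3 was higher with Tox2 in both cultures, and unlike the ligands its highest library was Tfh-like with Tox2. It encodes a secreted glycoprotein of the Dickkopf family; DKK1 of that family blocks LRP6, while Dkk3 is a divergent member whose action on Wnt signals depends on the cell. The gene lies on the minus strand of chromosome 7 (112116017 to 112159057). It had 82 counts in Th0 with Tox2 against 8 in Th0 with GFP, and 391 counts in Tfh-like with Tox2 against 12 in Tfh-like with GFP. Both GFP libraries were near the lower limit of the tables. Tox2 over GFP gave a ratio of 9.92 in Th0 (4.80 to 23.7) and 31.8 in Tfh-like (18 to 62), where only 2 of 10960 genes had a higher fold. The log2 fold was larger in Tfh-like than in Th0 by 1.76 (counting interval 0.45 to 3.06), although the intervals of the ratios overlap and the GFP libraries hold 8 and 12 counts. Tfh-like over Th0 was 4.95 with Tox2 (3.89 to 6.36), and with GFP it was 1.54 with an interval of 0.580 to 4.36 that holds 1. The level per length was 1.42 FPKM in Th0 with Tox2 and 0.140 in Th0 with GFP, and 7.01 FPKM in Tfh-like with Tox2 and 0.219 in Tfh-like with GFP.

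Cxxc5 was higher with Tox2 to about the same degree in both cultures. It encodes a CXXC zinc finger protein that binds unmethylated CpG DNA and, in the cytoplasm, Dishevelled, where it acts as a negative regulator of Wnt signals. The gene lies on chromosome 18. It had 1372 counts in Th0 with Tox2 against 89 in Th0 with GFP, and 638 counts in Tfh-like with Tox2 against 37 in Tfh-like with GFP. Both Tox2 libraries lay above both GFP libraries. The ratio for Tox2 over GFP was 14.9 in Th0 (12 to 18.7) and 16.8 in Tfh-like (12.1 to 24.1), and the log2 folds differed by 0.13 (-0.43 to 0.70). Tfh-like over Th0 gave 0.483 with Tox2 (0.439 to 0.531) and 0.428 with GFP (0.284 to 0.635). Each step in the order Th0 with Tox2, Tfh-like with Tox2, Th0 with GFP and Tfh-like with GFP exceeded counting error. At 35.0 FPKM in Th0 with Tox2 and 16.9 FPKM in Tfh-like with Tox2 it was, per length, the most abundant of these 4 genes in both Tox2 libraries. An antisense gene overlaps Cxxc5 in the annotation, and the strand setting of the counts is not given in the sources used here, so reads from the pair cannot be told apart.

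The genes whose level over the 4 libraries was most like that of each of these 4 were found by the distance between centred log2 CPM values among 10010 genes, each scored over 4 libraries. For Cxxc5 the nearest was Psd2 (distance 0.281), with 445 and 25 counts in Th0 with Tox2 and GFP, and 247 and 11 in Tfh-like with Tox2 and GFP, followed by Slc16a11, Ikzf2, Pnck and Sh3bgrl2 (0.895 to 1.43). For Wnt10b they were Zcchc12, Ghrh, Cdh3, Chst3 and Eomes (0.425 to 0.903), and for Wnt1 Cdh3, Zcchc12, Nptx1, Agr3 and Ghrh (1.08 to 1.37). Eomes, a T-box factor of cytotoxic and memory T cells, had 284 and 85 counts in Th0 with Tox2 and GFP, and 48 and 6 in Tfh-like with Tox2 and GFP. Wnt1 and Wnt10b were 1.23 apart from each other. For Dkk3 the nearest were Kcnmb1, Tns3, Slc37a2, Asic3 and Pmp22 (1.15 to 1.66). Kcnmb1, a potassium channel subunit, had 245 and 17 counts in Th0 with Tox2 and GFP, and 385 and 18 in Tfh-like with Tox2 and GFP.

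The other 5 members (Lrp6, Axin1, Apc, Gsk3b and Ctnnb1) differed far less than the 4 that were chosen by their large folds. Genes were called 2-fold apart from a log2 fold of 1 in either direction, if the counting interval also excluded 0. By this rule 4 of 9 members were apart for Tox2 over GFP in Th0, all higher, where 4.74% of all tested genes were apart and 3.18% were higher. In Tfh-like 4 of 9 were apart, all higher, against 4.75% of all genes apart and 2.86% higher. For Tfh-like over Th0 with Tox2, 4 of 9 were apart (1 higher and 3 lower), against 9.43% of all genes (6.56% higher and 2.86% lower). For Tfh-like over Th0 with GFP, 3 of 9 were apart, all lower, against 10.9% of all genes apart and 3.11% lower. The 4 members concerned were those chosen for such folds, so nothing follows from these counts. None of Lrp6, Axin1, Apc, Gsk3b and Ctnnb1 was 2-fold apart in any of the 4 pairs.

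**Figure D3:**
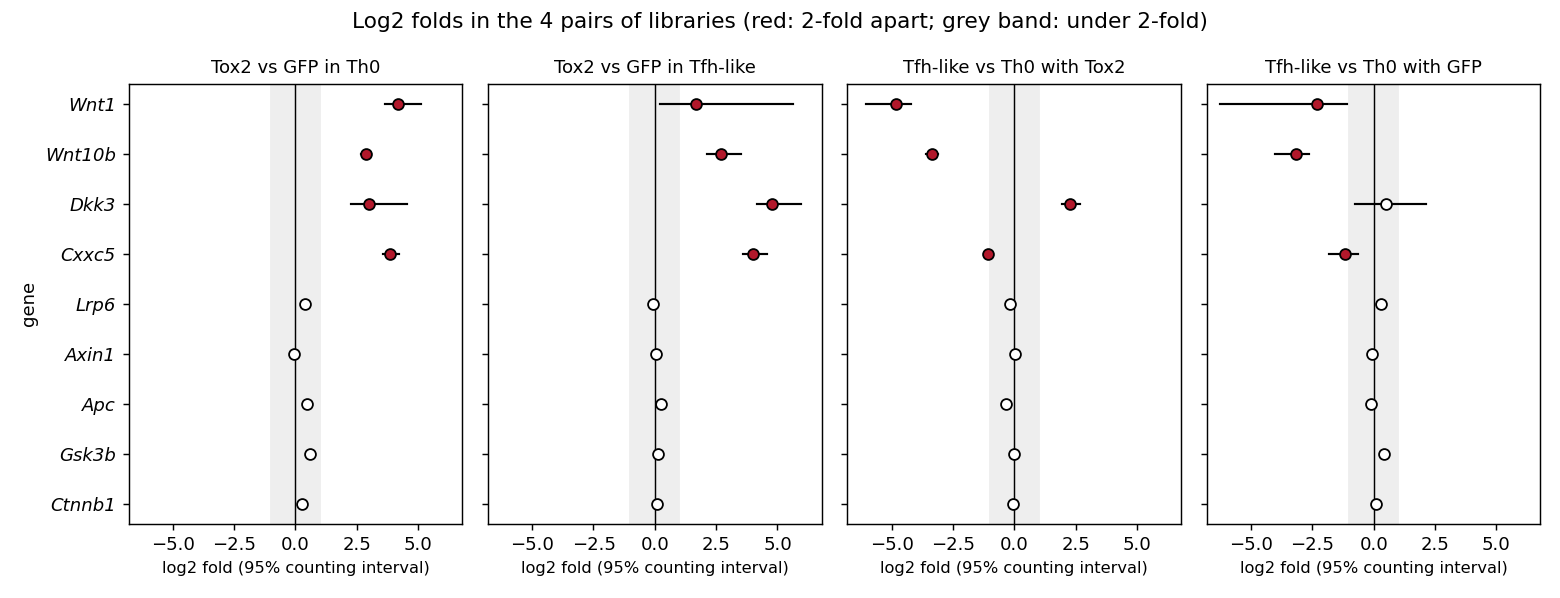
Log2 folds (x axis) of the 9 genes in 4 pairs of libraries, with 95% counting intervals; red points were called 2-fold apart and the grey band marks folds under 2. The upper 4 genes lie outside the band for Tox2 over GFP in both cultures, and the lower 5 lie inside it in all panels.

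Ctnnb1 was the most abundant member per length in every library, above 93.3% to 95.3% of listed genes. It had 6098 counts in Th0 with Tox2 against 4859 in Th0 with GFP, and 5602 counts in Tfh-like with Tox2 against 5101 in Tfh-like with GFP. The Tox2 library was the higher in each culture, by a ratio of 1.21 in Th0 (1.17 to 1.26) and 1.07 in Tfh-like (1.03 to 1.11). Counting error is small at this depth, and its interval excluded no difference for 56.2% of all tested genes in Th0 and 52.3% in Tfh-like, so an interval clear of 1 does not set a gene apart from the rest. The gene (chromosome 9, 120929216 to 120960507, plus strand) overlaps the listed gene Ulk4 in the annotation, and reads there may be shared.

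Lrp6, the co-receptor on the minus strand of chromosome 6 (134446476 to 134566965), had 982 counts in Th0 with Tox2 against 727 in Th0 with GFP, and 845 counts in Tfh-like with Tox2 against 858 in Tfh-like with GFP. The library of Th0 with GFP stood below the other 3 by more than counting error. The Tox2 ratio was 1.31 in Th0 (1.19 to 1.44) and 0.961 in Tfh-like (0.873 to 1.06). Tfh-like over Th0 gave 0.893 with Tox2 (0.814 to 0.980) and 1.22 with GFP (1.10 to 1.34), in comparisons where the interval excluded no difference for 58.3% and 63.3% of all tested genes. Lrp6 and Ctnnb1 were the 2 of 9 members whose intervals lay on opposite sides of no difference with Tox2 and with GFP, as did 3.24% of all tested genes.

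Among the destruction complex genes, Gsk3b, the kinase (chromosome 16, 38089001 to 38246084), had 1664 counts in Th0 with Tox2 against 1080 in Th0 with GFP, and 1590 counts in Tfh-like with Tox2 against 1412 in Tfh-like with GFP. Both Tox2 libraries were alike and Th0 with GFP was the lowest, with a Tox2 ratio of 1.49 in Th0 (1.38 to 1.61) and 1.10 in Tfh-like (1.02 to 1.18). Apc, the scaffold on chromosome 18 whose loss drives intestinal tumours, had 847 counts in Th0 with Tox2 against 592 in Th0 with GFP, and 652 counts in Tfh-like with Tox2 against 540 in Tfh-like with GFP. Its highest library was Th0 with Tox2, and the ratio was 1.38 in Th0 (1.24 to 1.54) and 1.18 in Tfh-like (1.05 to 1.32). Axin1, the scaffold that is usually limiting for the complex (chromosome 17, 26138688 to 26195811), had 1381 counts in Th0 with Tox2 and 1406 in Th0 with GFP, and 1361 counts in Tfh-like with Tox2 and 1301 in Tfh-like with GFP. No step in the order of its 4 libraries exceeded counting error, and the Tox2 ratio had intervals of 0.882 to 1.02 in Th0 and 0.945 to 1.10 in Tfh-like. The log2 fold for Tox2 was smaller in Tfh-like than in Th0 by -0.44 for both Gsk3b (-0.59 to -0.29) and Lrp6 (-0.64 to -0.25), differences that 19.7% and 19.5% of tested genes exceeded in size. Apc, Lrp6 and Gsk3b are longer than 98.1%, 96.7% and 90.7% of tested genes. With the trend of the fold on gene length removed, their log2 folds for Tox2 in Th0 were 0.19, 0.14 and 0.41, where they were 0.47, 0.39 and 0.58 without this step.

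The rest of the pathway was described through 138 further genes (ligands, secretion, receptors, inhibitors, Dishevelled, destruction complex, nuclear partners, targets and planar polarity), of which 80 could be tested. An additive model of culture and virus over all 4 libraries was used, in which spread is measured only by how far the Tox2 effect differs from Th0 to Tfh-like. With Tox2, 7 of the 80 rose and 0 fell at an adjusted p under 0.05 in edgeR's quasi-likelihood test, where 6.81% of all tested genes passed (4.07% up, 2.74% down). The median log2 fold of the 80 for Tox2 was 0.15 in Th0 and in Tfh-like 0.01, against 0.00 for all genes in both. DESeq2 called 4 of the 80, and the 0 that fell was also 0 in DESeq2 and limma-voom, while 20 of the 80 had an unadjusted p under 0.05 in edgeR in either direction.

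Among the genes of ligand handling, Wls rose with Tox2. It encodes Wntless, the carrier that takes lipid-modified Wnt proteins to the cell surface, and it had 446 counts in Th0 with Tox2 against 151 in Th0 with GFP, and 558 counts in Tfh-like with Tox2 against 121 in Tfh-like with GFP. Both Tox2 libraries lay above both GFP libraries (log2 effect 1.84, SE 0.19, edgeR adjusted p = 0.00598). Sfrp2, a secreted decoy that binds Wnt proteins, had 45 and 8 counts in Th0 with Tox2 and GFP, and 22 and 5 counts in Tfh-like with Tox2 and GFP (2.29, SE 0.42, edgeR adjusted p = 0.0315), but did not pass in DESeq2 (adjusted p = 0.239). Of 21 other ligand and R-spondin genes looked for, 1 was tested: Wnt5b had 11 to 16 counts in each library and did not pass. None of 9 tested receptor genes and none of 6 Dishevelled genes passed for Tox2 in edgeR, DESeq2 or limma-voom. In edgeR 4 and 0 of them had an unadjusted p under 0.05. As 6.81% of all tested genes passed in edgeR, lists this small can hold none at that share, and nothing follows from these counts.

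In the nucleus, 3 of 17 partners of beta-catenin rose with Tox2 in edgeR (2 in DESeq2), where 4.07% of all tested genes rose in edgeR. Tcf7 had 14605 counts in Th0 with Tox2 against 6497 in Th0 with GFP, and 14556 counts in Tfh-like with Tox2 against 6362 in Tfh-like with GFP (log2 effect 1.14, SE 0.10, edgeR adjusted p = 0.00417). Tle4, a Groucho corepressor that TCF proteins bind in the absence of beta-catenin, rose by 0.72 (SE 0.11), and Jup, encoding plakoglobin, a close relative of beta-catenin, by 0.61 (SE 0.10). Lef1 did not pass (0.30, SE 0.10, edgeR adjusted p = 0.109). In the destruction complex list 1 of 19 genes rose (5.26%, near the share of all genes). This was Amer1, an APC partner at the membrane, by 0.63 (SE 0.14, edgeR adjusted p = 0.0480). Of 11 polarity genes 1 rose (9.09%), Prickle1, by 0.97 (SE 0.16). Amer1 and Jup did not pass in DESeq2 (adjusted p = 0.195 and 0.0922), and Amer1 did not pass in edgeR with the length trend removed (adjusted p = 0.0681).

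Of 14 genes known as Wnt targets in other tissues, 1 passed for Tox2 (7.14%, where 6.81% of all tested genes passed in edgeR). This gene was Tcf7, and 6 of the 14 had an unadjusted p under 0.05 in edgeR in either direction. Axin2, a feedback inhibitor widely used as a readout of beta-catenin activity, had 328 counts in Th0 with Tox2 against 262 in Th0 with GFP, and 241 counts in Tfh-like with Tox2 against 185 in Tfh-like with GFP. The Tox2 library was the higher in each culture, but the effect of 0.31 (SE 0.14) did not pass (edgeR adjusted p = 0.222). Myc had an effect of -0.37 (SE 0.12, edgeR adjusted p = 0.118).

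With the culture, 16 of the 80 pathway genes rose and 6 fell, where 24.2% of all tested genes passed (14.3% up, 9.96% down), so the pathway share of 27.5% lay near that of all genes. The genes that rose included several receptors and membrane proteins. Kremen2, a receptor for Dickkopf proteins, had 639 counts in Tfh-like with Tox2 against 74 in Th0 with Tox2, and 633 counts in Tfh-like with GFP against 44 in Th0 with GFP (3.49, SE 0.20, edgeR adjusted p = 0.000198). The Frizzled receptor Fzd7 rose by 1.96 (SE 0.21), the R-spondin receptor Lgr4 by 2.36 (SE 0.25), Tpbg, a membrane inhibitor of Wnt signals, by 2.30 (SE 0.30) and Fzd10, with at most 28 counts, by 2.04 (SE 0.51). Dkkl1, a Dickkopf-like secreted protein, rose by 1.25 (SE 0.35) and the polarity genes Vangl1 and Celsr1 by 1.25 (SE 0.24) and 0.51 (SE 0.13). The rise of Dkkl1 differed with the virus, with a log2 fold of 1.94 with Tox2 (counting interval 1.49 to 2.52) and 0.58 with GFP (0.2 to 0.99).

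Of the genes that act inside the cell, Apc2 was higher in Tfh-like than in Th0 by 1.56 (SE 0.24) and the casein kinase gene Csnk1e by 0.62 (SE 0.13). The repressor Tcf7l1 was higher by 1.23 (SE 0.24) and Jup by 0.47 (SE 0.10). Of the targets, Id2 rose by 2.52 (SE 0.16), Ascl2, a factor of Tfh cells, by 2.22 (SE 0.29) and Jun by 1.77 (SE 0.14), while Cd44 fell by 0.52 (SE 0.12). Prickle1 fell by 2.02 (SE 0.16), Tmed5, which acts in Wnt secretion, by 0.68 (SE 0.15), Tle4 by 0.56 (SE 0.11) and the coactivator Crebbp by 0.45 (SE 0.10). The genes that complete the count, named after their values were seen, were the coactivator Ep300, which rose by 0.49 (SE 0.14), and Cby1, an antagonist of beta-catenin, which fell by 0.46 (SE 0.11). Tcf7, Lef1, Axin2 and Myc did not pass (0.03, 0.03, -0.42 and 0.21). In DESeq2, 12 of the 80 passed for the culture (9 up, 3 down); Fzd10, Dkkl1, Vangl1, Celsr1, Csnk1e, Tcf7l1, Jup, Tle4, Crebbp and Cby1 were not among them. Of 10 other genes for CXXC domain proteins, none passed for Tox2 in edgeR or limma-voom, where 6.81% of all tested genes passed in edgeR. In DESeq2 1 did (Kmt2a, DESeq2 adjusted p = 0.0250), and 4 had an unadjusted p under 0.05 in edgeR. With the culture Dnmt1, the maintenance DNA methyltransferase, fell by 0.61 (SE 0.12).

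**Figure D4:**
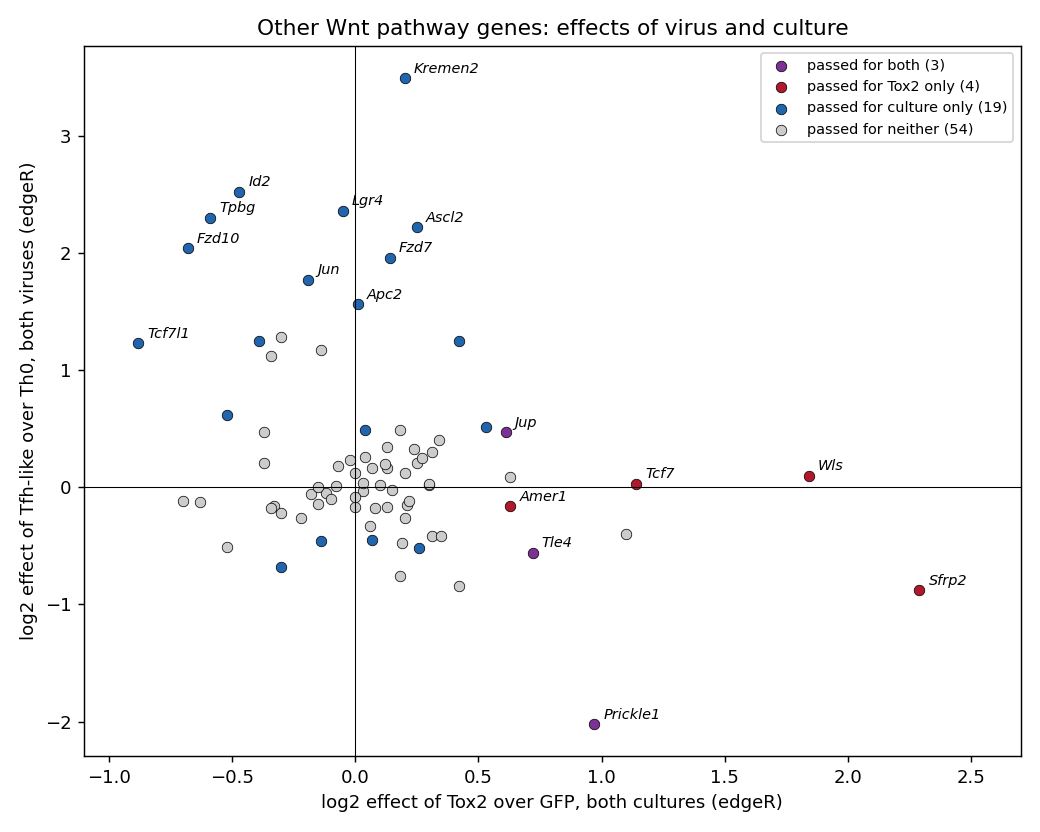
Log2 effect of Tox2 over GFP (x axis) and of Tfh-like over Th0 (y axis) from the additive edgeR fit for 80 other Wnt pathway genes; colours mark genes that passed at an adjusted p under 0.05. Wls and Tcf7 lie to the right with a culture effect near 0 (0.10 and 0.03), Sfrp2 farthest right at -0.88, and Kremen2 at the top.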

How the data were processed

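Total RNA of 4 libraries of CD4+ T cells was extracted with Trizol and sequenced by BGI, per the labels' protocols. The deposited whole-number read counts per gene were not normalized, per the file headers and the values. The authors also deposited FPKM, used here for levels between genes. Build mm10, edgeR, featureCounts, Subread, Bowtie2, MACS2 and Trim Galore 0.4.4 are named, without roles, in the submitters' processing notes. The annotation and whether strand was used are not given in the sources here. The lowest CPM of any listed gene in its second-highest library was 0.658, so genes low in all groups were not analysed here.

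Counts were scaled by TMM (edgeR 4.0.16, R 4.3.3). Log2 folds used a prior count of 2; ratios used none and carry exact conditional binomial 95% intervals. Differences of folds, taken with the prior count of 2, carry delta-method intervals. The additive model (culture plus virus, 1 residual degree of freedom) was tested by quasi-likelihood in edgeR, Benjamini-Hochberg adjusted over 10960 genes, at 0.05; its p-values rest on the spread between these libraries, not between replicates. DESeq2 1.42.0 and limma-voom 3.58.1 were alternatives. The procedure was tested on simulated counts. Gene length was read from the ratio of count to FPKM. Coordinates are GENCODE M21 (GRCm38).

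Members and lists were chosen with earlier results of these data known. Named genes are the members, Tcf7, Lef1, Axin2, Myc and Ccnd1 where tested, up to 4 passing genes per list and effect, the 5 genes most alike to each variable member, and the 3 protein-coding neighbours on either side of the Wnt pair; members of the lists named beyond this were chosen after their values were seen.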

Additional observations from a re-analysis of the deposited data

Results flagged for a closer look

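For 2 of the 9 genes the culture went in opposite directions with the 2 viruses, each beyond counting error, as for 3.24% of all tested genes. Lrp6 had a log2 fold for Tfh-like over Th0 of -0.16 with Tox2 (counting interval -0.30 to -0.03) and 0.28 with GFP (0.14 to 0.43). Ctnnb1 had -0.07 with Tox2 (-0.12 to -0.02) and 0.11 with GFP (0.06 to 0.17). With 1 library per group these differences were not tested, and all 4 folds are small. Lrp6 with Tox2 had -0.08 with the length trend removed, and Ctnnb1 with GFP had 0.02 when scaled by the sum of listed counts. The counting interval moves with the fold, and in these 2 cases it no longer excludes no difference. The opposite directions beyond counting error are thus stated for the scaling used above and do not hold under these alternatives. No sample could be singled out within a group, since each group is 1 library.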

How the results depend on the processing

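The number of members 2-fold apart was the same in 23 of 24 recalculations (3 and not 4 for Tox2 in Tfh-like at a prior count of 10, without Wnt1), and 211 of 216 recalculated member folds stayed inside the counting interval. The exceptions were, with the length trend removed, Lrp6, Apc and Gsk3b for Tox2 in Th0 (given above), Wnt1 for Tfh-like over Th0 with Tox2 at a prior count of 10 (-4.16) and Ctnnb1 for Tfh-like over Th0 with GFP scaled by the sum of listed counts (0.02). With the length trend removed, the culture effect of Tcf7 changed from 0.03 to 0.00 with the sign turned. With DESeq2, 4 pathway genes passed for Tox2 (4 up) and 12 for the culture (9 up, 3 down), not 7 and 22. With edgeR, 6 passed for Tox2 with the length trend removed and 5 at a CPM of at least 5; Amer1 lost its call in both and Dkkl1 its culture call at the CPM of 5. The difference of the Tox2 folds of Wnt1 between the cultures moved with the prior count (-2.13 at 0.5, -2.52 at 2, -2.94 at 10). Over all genes DESeq2 passed 492 for Tox2 (191 down) and 1609 for the culture (551 down), where edgeR passed 746 (300 down) and 2656 (1092 down). Causes were not tested. No paired analysis was possible because each group has 1 library. Counts of 2 to 18 limit Wnt1 and Dkk3 in the GFP libraries.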
